A study of Saccharomyces cerevisiae with 6 samples.

Results

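The genes that build, store and regulate ergosterol were examined in yeast lacking the histone methyltransferase Set2. The set held 31 genes, chosen by name: 25 enzymes and accessory proteins of the synthesis pathway, 4 genes of sterol storage, modification and binding, and the transcription factors UPC2 and ECM22. All 31 were found among the 18646 transcriptional units of the count table, ERG29 through its systematic name YMR134W. Total RNA of W303 yeast, a widely used laboratory strain, was sequenced from 3 Δset2 samples, in which a His3 marker replaced SET2 according to the sample labels, and from 3 WT samples of the same strain. For the deletion cassette the study's methods name KanMX instead. Each sample came from a separate colony grown in YPDA, a rich glucose medium with adenine, to an optical density of 0.6, and was depleted of rRNA before library preparation.

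Reads per library summed to between 5135226 (Δset2 replicate 2) and 22536840 (Δset2 replicate 3) in Δset2 and to between 10568372 and 15015735 in WT. SET2 had 20, 9, and 32 reads in Δset2, against 435, 298, and 459 reads in WT, so the libraries carry the genotype on their labels. Levels are given as normalized CPM, reads relative to a library total that edgeR's TMM method had scaled, in counts per 1e+06 reads. Of 5317 units with enough reads to be tested, 190 (3.57%) passed both thresholds of the study's methods, which ask for more than a 1.5-fold difference together with an adjusted P value under 0.05. Of these, 151 (2.84%) were higher and 39 (0.733%) were lower in Δset2. All 31 sterol genes were tested. In bulk RNA, fewer cells with a transcript and less of it per cell cannot be told apart.

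Ergosterol is the main sterol of fungal membranes, as cholesterol is of animal membranes. Its synthesis starts from acetyl-CoA through mevalonate to squalene, which is oxidized, closed to the ring compound lanosterol, and then trimmed and desaturated in the endoplasmic reticulum. Several of the late steps consume oxygen and use heme or iron, and Upc2 and Ecm22 activate many of the genes through a promoter motif, the sterol response element.

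The core of that element, TCGTATA, was searched on both strands in the 500 bases upstream of each coding start of the RefSeq R64 genome, which has the coordinates of sacCer3. The sequences are those of this reference genome, and the promoters of the W303 strain itself were not read. It was present upstream of 9 of the 31 genes (CYB5, ERG1, ERG2, ERG3, ERG6, ERG8, ERG13, ERG25, and ERG28) and of 420 of 6006 genes with a full window (6.99%). Below, 6 of these sites are shown because their genes recur in the results, each read 5′ to 3′ on the strand of the gene. Capitals mark the motif, which reads TATACGA where it lies on the opposite strand.
ERG1: tagcgggcctTCGTATAgctcggccga
ERG2: accacggcccTCGTATAagccgcaagg
ERG3: aaattcaggcTCGTATAagtggcacaa
ERG25: gacacagagaTCGTATAcggtaaacga
ERG8: tgcgtttttcTATACGAgatctaaaag
CYB5: aaaagaaagcTATACGAgatcgagata
These windows lie at chrVII:848789-848815 (ERG1, minus strand), chrXIII:667342-667368 (ERG2, plus strand), chrXII:253565-253591 (ERG3, plus strand), chrVII:610091-610117 (ERG25, plus strand), chrXIII:712154-712180 (ERG8, plus strand), and chrXIV:417561-417587 (CYB5, minus strand). The motif began 185 bases before the coding start of ERG2 and 382 bases before that of ERG1. ERG3, ERG13, and ERG25 each held a second copy. The binding motif of the heme-responsive factor Hap1, searched in the same way, was found upstream of 0 of the 31 genes and of 21 of the 6006 genes (0.35%).

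A single gene of the set differed between Δset2 and WT past both thresholds, the sterol esterification gene ARE1, which was higher in Δset2. Thus 1 of 31 sterol genes passed (3.23%), near the 3.57% of all tested units. It was also the only one with an adjusted P value below 0.05, which 6.24% of all units reached. DESeq2 likewise put 1 sterol gene past both thresholds, ARE1, and 3.47% of the units it tested. The median log2 fold change of the 31 genes was -0.02, and that of all tested units was 0.00. Estimates below 0 made up 58.1% of the genes and 50.5% of all units. At an unadjusted P value below 0.05, 7 of the 31 genes (22.6%) were found, 2 higher and 5 lower, compared with 23.6% of all tested units (12.8% higher and 10.7% lower). The 3 Δset2 values did not overlap the 3 WT values for 7 genes (22.6%), 2 higher and 5 lower, compared with 27.9% of all tested units (14.1% higher and 13.8% lower). The 95% confidence interval of the fold change lay wholly within 1.5-fold of no change for 25 of the 31 genes (80.6%) and for 65.1% of all tested units.

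**Figure D1:**
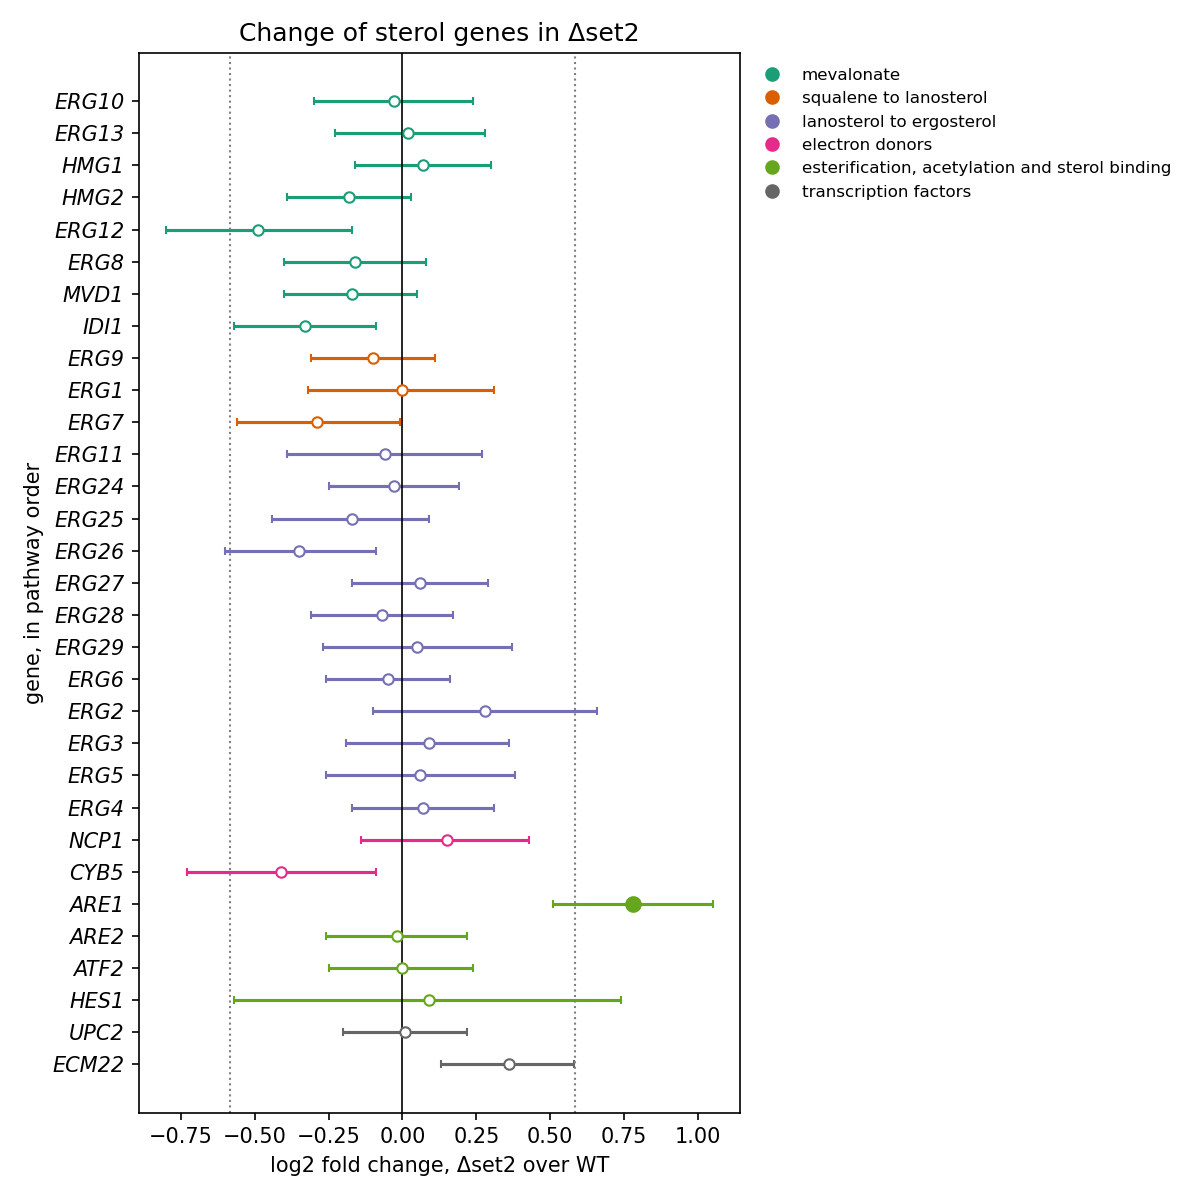
Log2 fold change in Δset2 over WT (horizontal axis) for the 31 genes in pathway order, coloured by list. Points are edgeR estimates from 3 Δset2 and 3 WT libraries, bars are 95% confidence intervals, dotted lines mark a 1.5-fold change, and the filled point is ARE1, the gene past both thresholds at 0.78.

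ARE1 and ARE2 encode the acyltransferases that join sterols to fatty acids for storage in lipid droplets, and ARE2 is known as the main enzyme in aerobic cells. ARE1 (YCR048W) is on the plus strand of chromosome III, and its unit spans 211846 to 213862 of sacCer3. It had 40.7, 42.6, and 38.6 normalized CPM in Δset2, against 26.0, 19.9, and 24.6 normalized CPM in WT. All 3 Δset2 values lay above the WT values. This was a 1.72-fold rise, or 0.78 on the log2 scale (SE 0.12). In the quasi-likelihood test of edgeR, adjusted by the Benjamini-Hochberg method as for all P values of that tool here, the adjusted P value was 0.0052. ARE1 ranked 66 among the 5317 units by P value and 143 by size of rise.

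Its paralog did not pass. ARE2 had 246.6, 257.5, and 203.3 normalized CPM in Δset2, against 242.0, 245.9, and 227.0 normalized CPM in WT, so the groups overlapped. The log2 fold change was -0.02, with a 95% interval from -0.26 to 0.22. Per base covered by no other unit, the ratio of ARE1 to ARE2 was 0.274 ± 0.0224 in Δset2 and 0.156 ± 0.0249 in WT (SD, n = 3 each). The ratios did not overlap between groups (two-sided exact permutation test of the log2 ratio, P = 0.1, the smallest that 3 samples against 3 can give). ARE2 thus remained the more abundant transcript of the pair in all 6 libraries.

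Reads that touch more than one unit were not counted, and strand was ignored. The ARE1 unit contains 2 small units annotated on the opposite strand (YCR049C and YCR050C), which left 1261 of its 2017 bases to be counted. The counts do not separate ARE1 mRNA from antisense RNA on those bases. The tested neighbours on the left, BUD23 (195 bases away) and IMG1, had log2 fold changes of 0.70 (SE 0.27) and 0.47 (SE 0.14), and neither passed (adjusted P = 0.15 and 0.080, edgeR). The tested neighbours on the right, RSC6 and THR4, had values of 0.13 and -0.36 (adjusted P = 0.55 and 0.12, edgeR).

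Among the other genes of sterol storage and binding, ATF2, which acetylates sterols for export, had a log2 fold change of 0.00 to 2 decimals (interval -0.25 to 0.24). HES1, an oxysterol-binding protein, had only 11, 10, and 34 reads in Δset2, against 17, 16, and 18 reads in WT. At this depth its interval ran from -0.57 to 0.74, so that changes near 1.5-fold were not detectable.

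The paralogous activators UPC2 and ECM22 had different estimates, and neither passed. ECM22 had 43.8, 38.9, and 41.3 normalized CPM in Δset2, against 32.7, 30.0, and 34.3 normalized CPM in WT, with no overlap. Its log2 fold change was 0.36 (SE 0.10), but it did not pass after adjustment over all units (adjusted P = 0.069, edgeR). UPC2 had 47.2, 45.2, and 49.9 normalized CPM in Δset2, against 47.1, 46.8, and 47.9 normalized CPM in WT. Its interval ran from -0.20 to 0.22, and the ratio of UPC2 to ECM22 per base was 1.09 ± 0.0623 in Δset2 and 1.38 ± 0.0798 in WT (SD, n = 3 each; two-sided exact permutation test, P = 0.1, the smallest possible). Of the 9 genes with a sterol response element, 0 passed the thresholds, 1 had an unadjusted P value below 0.05 (CYB5), and the median log2 fold change was -0.05 (-0.01 for the 22 others). Of all tested units, 3.57% passed the thresholds and 23.6% had an unadjusted P value below 0.05, so few calls among 9 genes say little. DESeq2 also called 0 of these 9 genes.

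**Figure D2:**
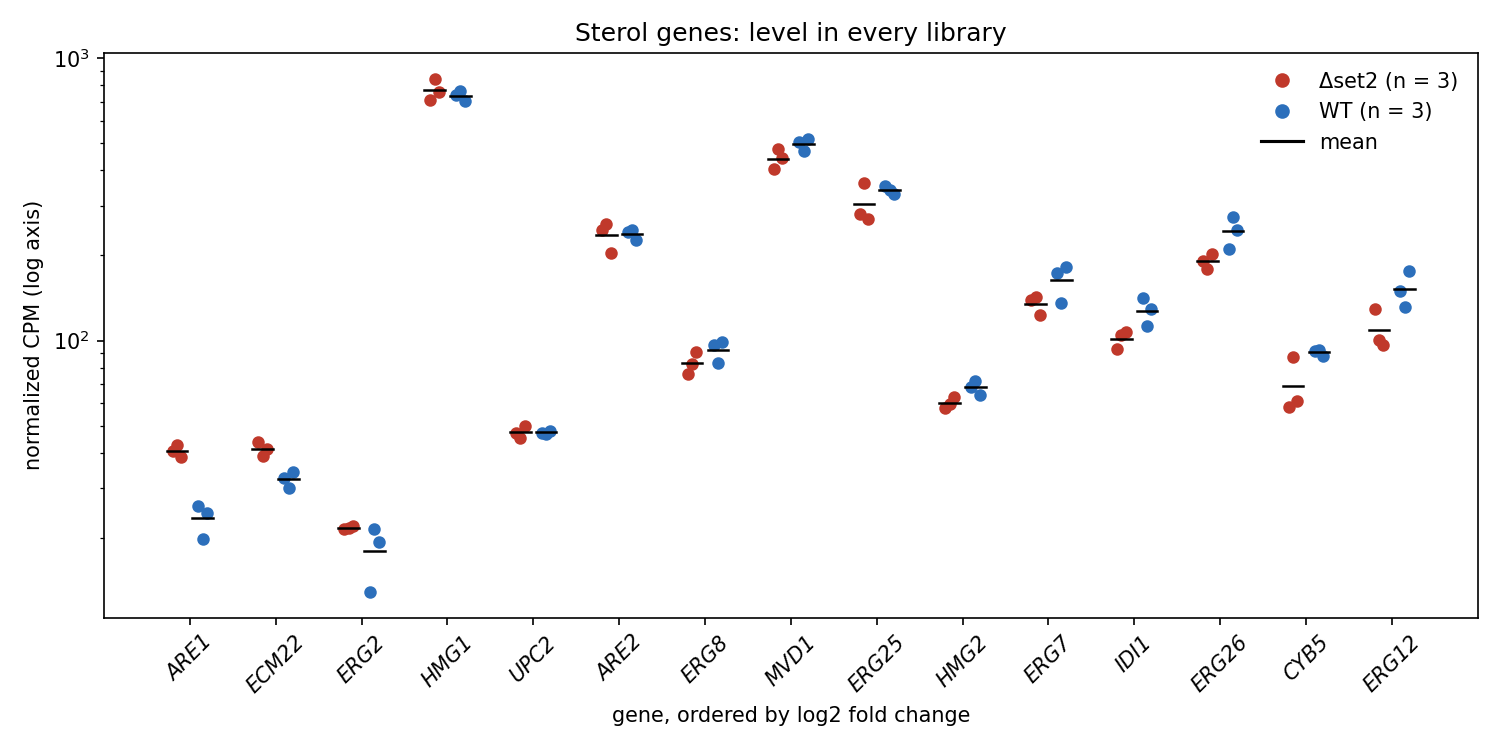
Normalized CPM on a log axis for 15 sterol genes in each of 3 Δset2 (red) and 3 WT (blue) libraries, ordered by log2 fold change, with black lines at group means. ARE1 and ECM22, at the left, lie higher in every Δset2 library, and ERG12, CYB5, ERG26, IDI1, and HMG2 lie lower in every Δset2 library.

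In the mevalonate branch, 0 of 8 genes passed the thresholds (2 at an unadjusted P value below 0.05, and 0 with DESeq2), and 6 of 8 estimates were below 0, with a median of -0.17. The shares over all tested units, against which this and the later lists are read, were 3.57% past the thresholds, 23.6% at an unadjusted P value below 0.05, and 50.5% below 0. ERG12, mevalonate kinase, was the lowest, with 129.1, 100.6, and 96.2 normalized CPM in Δset2, against 149.6, 131.4, and 176.2 normalized CPM in WT. The groups did not overlap, although Δset2 replicate 1 lay just below WT replicate 2. The log2 difference was -0.49 (SE 0.14, adjusted P = 0.072 from edgeR and 0.027 from DESeq2, where 6.68% of units had an adjusted P value below 0.05). Without WT replicate 2 it was -0.59 and passed both thresholds (adjusted P = 0.017, edgeR). In that fit 373 of all units passed, against 190 with all 6 libraries. ERG12 did not pass with any other single library left out. Over these fits its values lay between -0.63 and -0.37, with adjusted P up to 0.26 (edgeR).

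IDI1, the isomerase that balances both isoprenoid building blocks, had 93.2, 104.2, and 107.0 normalized CPM in Δset2, against 140.9, 112.4, and 129.7 normalized CPM in WT. All Δset2 values were below those of WT, and the log2 difference was -0.33 (SE 0.11, adjusted P = 0.10, edgeR). MVD1, which makes the first of these building blocks, had 403.2, 475.1, and 441.2 normalized CPM in Δset2, against 505.9, 467.0, and 515.1 normalized CPM in WT (log2 fold change -0.17). ERG8, phosphomevalonate kinase, had 76.2, 82.3, and 90.7 normalized CPM in Δset2, against 96.3, 83.4, and 98.9 normalized CPM in WT (log2 fold change -0.16). The groups overlapped for both genes.

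HMG1 and HMG2 encode the rate-limiting HMG-CoA reductases. HMG1 had 709.5, 844.8, and 758.2 normalized CPM in Δset2, against 738.3, 765.9, and 701.5 normalized CPM in WT. HMG2 had 57.8, 59.4, and 63.1 normalized CPM in Δset2, against 68.6, 72.2, and 64.1 normalized CPM in WT. HMG1 overlapped between the groups (log2 fold change 0.07), whereas each Δset2 value of HMG2 was below the WT values (log2 fold change -0.18, adjusted P = 0.28, edgeR). The ratio of HMG1 to HMG2 per base was 3.62 ± 0.340 in Δset2 and 3.04 ± 0.0470 in WT (SD, n = 3 each; two-sided exact permutation test, P = 0.1, the smallest possible). Noncoding units on the opposite strand left 996 of the 3448 bases of HMG2 to be counted. The first enzymes of the branch, ERG10 and ERG13, had log2 fold changes of -0.03 and 0.02.

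Between mevalonate and lanosterol, 0 of 3 genes passed (1 at an unadjusted P value below 0.05, and 0 with DESeq2). ERG7, lanosterol synthase, had 139.5, 142.3, and 122.8 normalized CPM in Δset2, against 173.8, 136.2, and 182.5 normalized CPM in WT. WT replicate 2 lay among the Δset2 values, and the log2 difference was -0.29 (SE 0.12, adjusted P = 0.19, edgeR). ERG9, squalene synthase, had a value of -0.10, and ERG1, squalene epoxidase, one of 0.00 to 2 decimals.

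In the steps from lanosterol to ergosterol, 0 of 12 genes passed (1 at an unadjusted P value below 0.05, and 0 with DESeq2), with 6 estimates above and 6 below 0 and a median of 0.01. ERG26, the dehydrogenase of the sterol demethylation complex, had 191.8, 178.8, and 203.0 normalized CPM in Δset2, against 210.5, 274.0, and 245.5 normalized CPM in WT. The groups did not overlap, and the log2 difference was -0.35 (SE 0.11, adjusted P = 0.10, edgeR). In its partners in that complex the log2 fold changes were -0.17 for the oxidase ERG25, 0.06 for the reductase ERG27, and -0.07 for the scaffold ERG28.

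ERG25 had 281.5, 360.7, and 269.1 normalized CPM in Δset2, against 352.9, 341.3, and 331.1 normalized CPM in WT, so that Δset2 replicate 2 exceeded every WT value. ERG2, a sterol isomerase, had 21.5, 21.7, and 22.0 normalized CPM in Δset2, against 12.9, 21.5, and 19.3 normalized CPM in WT. The ERG2 groups touched only through WT replicate 2 (log2 fold change 0.28, adjusted P = 0.35, edgeR), and 289 of its 849 bases were open to counting. ERG11, the heme enzyme inhibited by azole antifungals, had a log2 fold change of -0.06 (interval -0.39 to 0.27). The other late genes, ERG24, ERG29, ERG6, ERG3, ERG5, and ERG4, lay between -0.05 and 0.09.

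Of the electron donors, CYB5, a heme protein that serves sterol and lipid desaturation, had 58.1, 87.3, and 61.1 normalized CPM in Δset2, against 91.4, 92.8, and 88.1 normalized CPM in WT. All WT values were higher, but Δset2 replicate 2 lay just below WT replicate 3. The log2 difference was -0.41 (SE 0.14, adjusted P = 0.12, edgeR). Without Δset2 replicate 2 it was -0.61 and passed both thresholds (adjusted P = 0.010, edgeR). CYB5 did not pass with any other single library left out. Over these fits its values lay between -0.61 and -0.31, with adjusted P up to 0.36 (edgeR). NCP1, the reductase that supplies electrons to heme enzymes of the pathway, had a value of 0.15 (interval -0.14 to 0.43).

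The sterol genes also varied between colonies of the same genotype. Δset2 replicate 2 was the highest of the 3 Δset2 libraries for 18 of the 31 sterol genes (58.1%), compared with 36.8% of all tested units with reads in every library. By list it was the highest for 8 of 12 genes from lanosterol to ergosterol and for both electron donors. It was also the highest for all 4 genes of storage, modification and binding and for 2 of 3 genes between mevalonate and lanosterol. In contrast, it was the highest for only 2 of 8 genes of the mevalonate branch and for 0 of the 2 transcription factors. Some margins were small, as for ATF2 (29.3 normalized CPM, against 29.0 in Δset2 replicate 3). HES1 had only 10 reads in Δset2 replicate 2. The 5 iron- or heme-dependent genes (ERG11, ERG5, ERG25, ERG3, and CYB5), which overlap these lists, were all highest in it as well. Measured against each gene's mean over all libraries, the median log2 deviation of the 31 genes was -0.10, 0.09, and 0.00 in Δset2 replicates 1, 2, and 3, against 0.03, 0.00, and 0.02 in WT replicates 1, 2, and 3. Over all tested units these medians lay between 0.00 and 0.01.

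ERG11 shows this most plainly among the abundant genes. It had 1259.8, 1915.9, and 1545.4 normalized CPM in Δset2, against 1747.5, 1553.4, and 1614.9 normalized CPM in WT. The coefficient of variation was 20.9% in Δset2 and 6.05% in WT. It was 19.7% in Δset2 and 4.51% in WT for ERG1. For ERG25 it was 16.4% in Δset2 and 3.20% in WT. Other genes varied more in WT, and the median over the 31 genes was 8.33% in Δset2 and 8.04% in WT, below the medians over all tested units of 9.997% in Δset2 and 10.31% in WT. Δset2 replicate 2 was also the smallest library, and the part of depth or culture in this pattern was not tested.

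**Figure D3:**
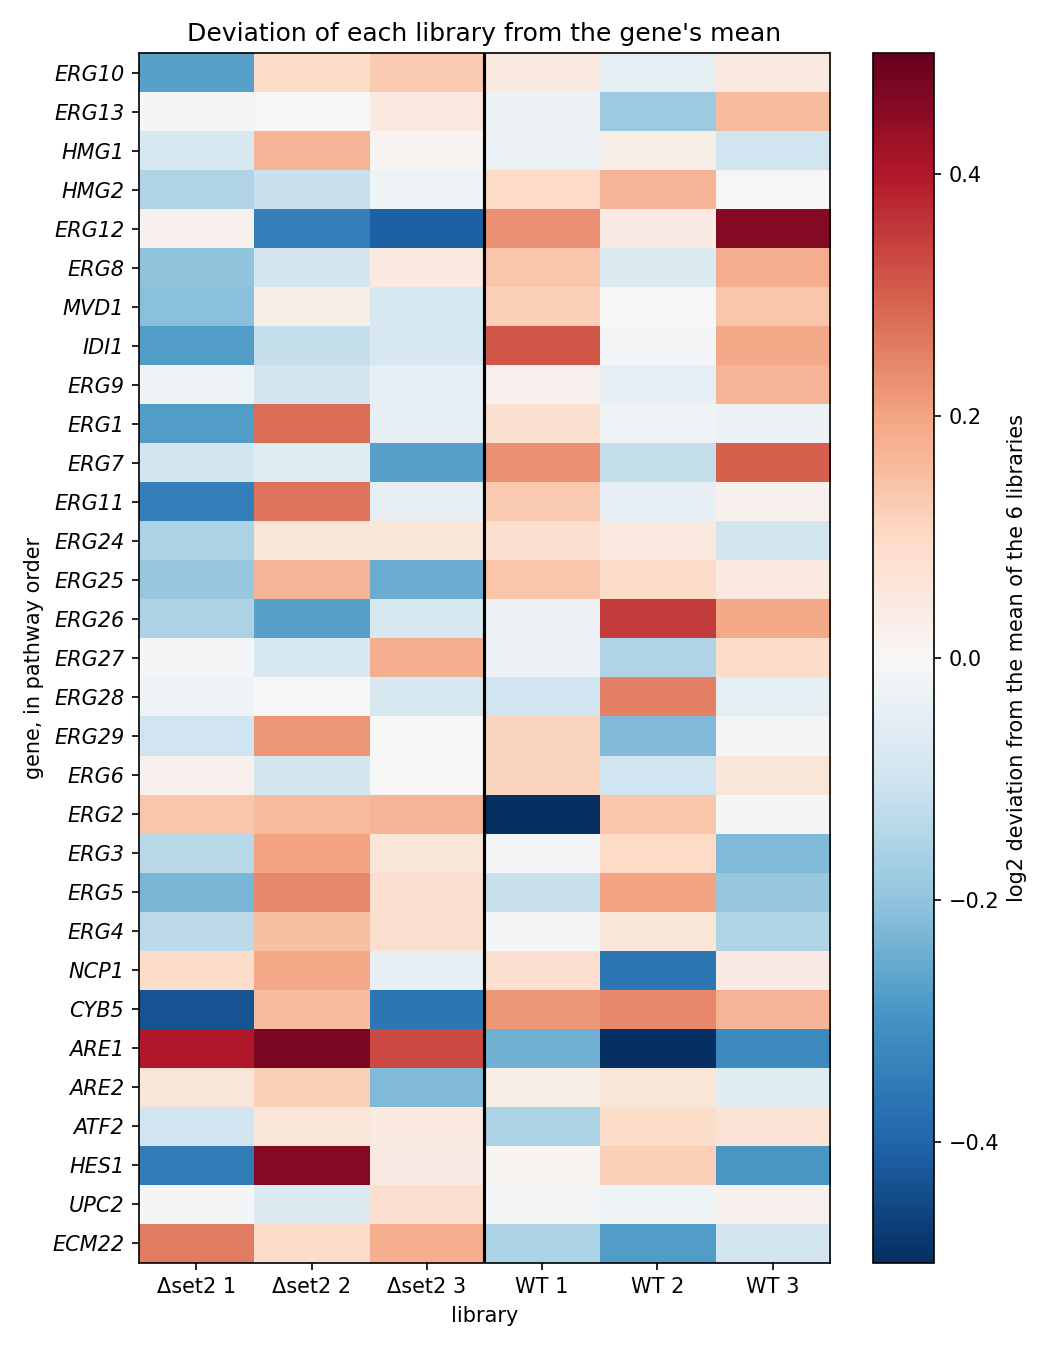
Log2 deviation of each library from the mean of the 6 libraries, for the 31 genes in pathway order (colour scale ends at -0.5 and 0.5), with 3 Δset2 libraries left of the line and 3 WT libraries right of it. ARE1 is above its mean in all Δset2 libraries, and ERG1, ERG11, ERG3, and ERG5 are high in Δset2 replicate 2 and low in Δset2 replicate 1.

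The genes spanned a wide range of levels. Scaled to the bases that no other unit covers, the mean over all 6 libraries was highest for ERG11 (794 normalized CPM per kilobase), ERG13 (728), ERG1 (544), and ERG10 (507). It was lowest for UPC2 (18.3 normalized CPM per kilobase), ECM22 (15.1), ERG29 (13.3), and HES1 (0.982). The median gene of the set lay at percentile 88.8 of the tested units by this measure, and 13 of the 31 lay above percentile 90. The regulators were thus among the least abundant members, and ARE1 ranked 27 of 31, below ARE2 at 18. ERG11 and ERG13 overlapped in their levels, since ERG11 varied between libraries by more than their difference. The scaling matters for genes that other units overlap. Per kilobase of the whole annotated unit, the level was 15.9 instead of 25.4 normalized CPM for ARE1, 23.4 instead of 68.6 for ERG2, 18.6 instead of 64.4 for HMG2, and 15.02 instead of 46.3 for ATF2, which puts ATF2 below UPC2 at 15.3. The size of a ratio between paralogs shifts with this choice by the same factor in every library, so the comparison of that ratio between Δset2 and WT does not.

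**Figure D4:**
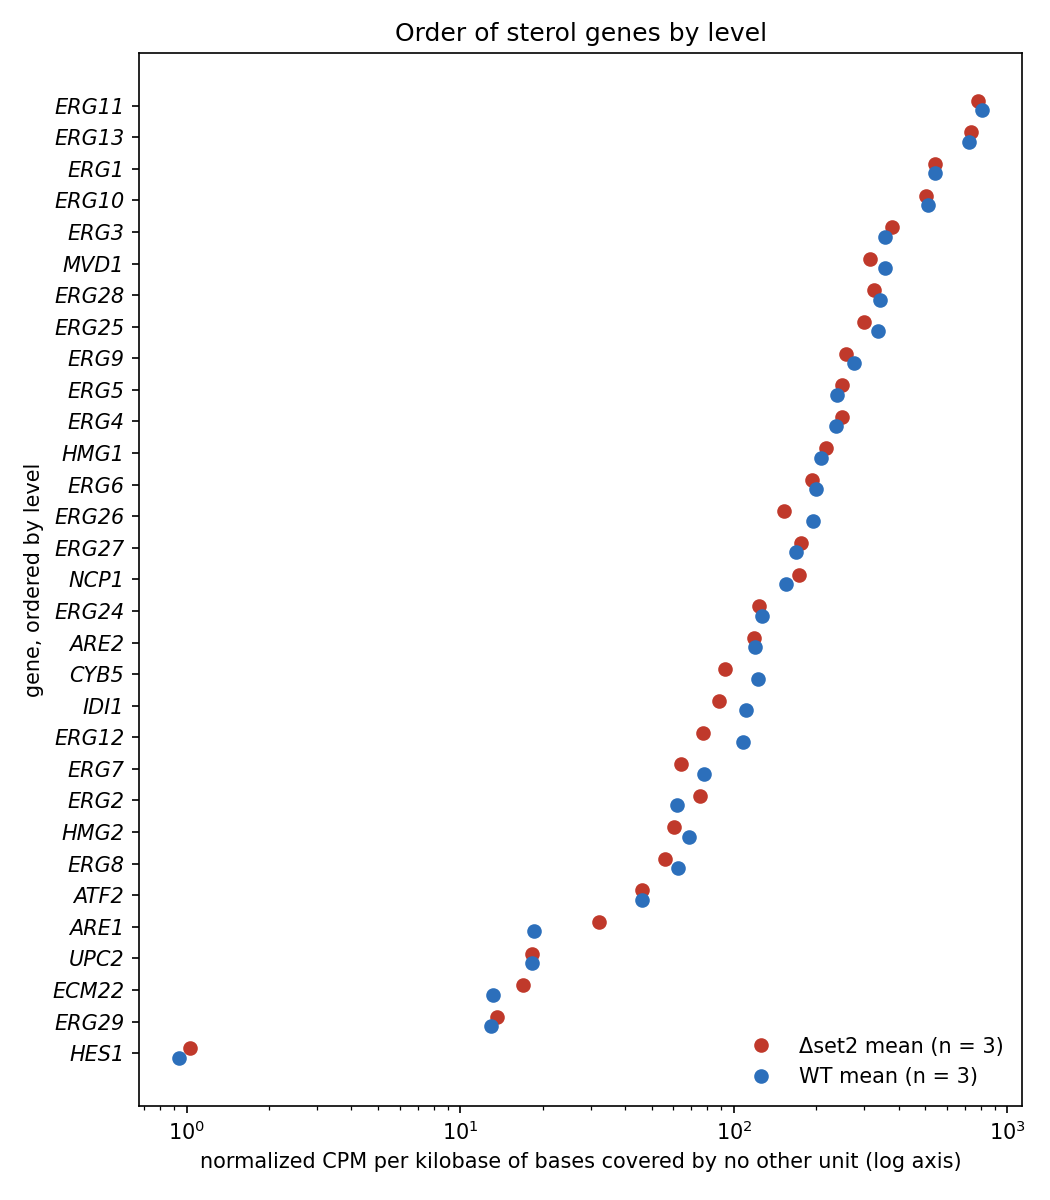
Mean normalized CPM per kilobase (log axis) of bases covered by no other unit, for the 31 genes in order of level, in Δset2 (red, n = 3) and WT (blue, n = 3). The group means nearly coincide for most genes, with the clearest gap at ARE1.

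Other genes of the pathway and of sterol handling were taken as a list of 42, of which 38 had enough reads to be tested. Of these, 2 passed the thresholds, both higher (LAM4 and LAM6), or 5.26%, compared with 3.57% of all tested units (2.84% higher). The median log2 fold change of the list was 0.03. ERG20, which joins the isoprenoid units to farnesyl diphosphate and links the mevalonate branch to ERG9, lies beside SET2 on chromosome X, with 331 bases between the units and the opposite direction of transcription. It had 285.1, 326.6, and 341.4 normalized CPM in Δset2, against 385.5, 382.0, and 364.3 normalized CPM in WT. All Δset2 values were lower, by -0.25 on the log2 scale (SE 0.10, adjusted P = 0.17, edgeR). The part of the marker at the adjacent locus was not tested.

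LAM4 and LAM6 encode proteins that move sterols at contacts between membranes. LAM4 (YHR080C, chromosome VIII, 262801 to 267211, minus strand) had 68.1, 57.0, and 63.5 normalized CPM in Δset2, against 40.6, 40.9, and 37.9 normalized CPM in WT. The log2 difference was 0.66 (SE 0.10, adjusted P = 0.0052, edgeR). With each library left out in turn LAM4 still passed, with values between 0.60 and 0.72 and adjusted P up to 0.044 (edgeR). LAM6 (YLR072W, chromosome XII, 278840 to 281024, plus strand) had 16.7, 18.7, and 17.8 normalized CPM in Δset2, against 11.9, 12.4, and 10.99 normalized CPM in WT. At 0.59 on the log2 scale (SE 0.12, adjusted P = 0.019, edgeR), it was just above the fold threshold. It passed without WT replicate 2 but not without any other single library, with values between 0.54 and 0.63 and adjusted P up to 0.11. The related LAM5 had a value of 0.38 (adjusted P = 0.068, edgeR), whereas LAM1, SIP3, and YSP2, which belong to the same family, had values of -0.15, -0.26, and -0.13, none of which passed.

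ARE1 kept its call in each of the 13 alternatives, with log2 fold changes between 0.67 and 0.85. With single libraries left out the adjusted P value stayed between 0.0029 and 0.033 (edgeR). ECM22 kept its direction in each of them and passed in none.

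**Figure D5:**
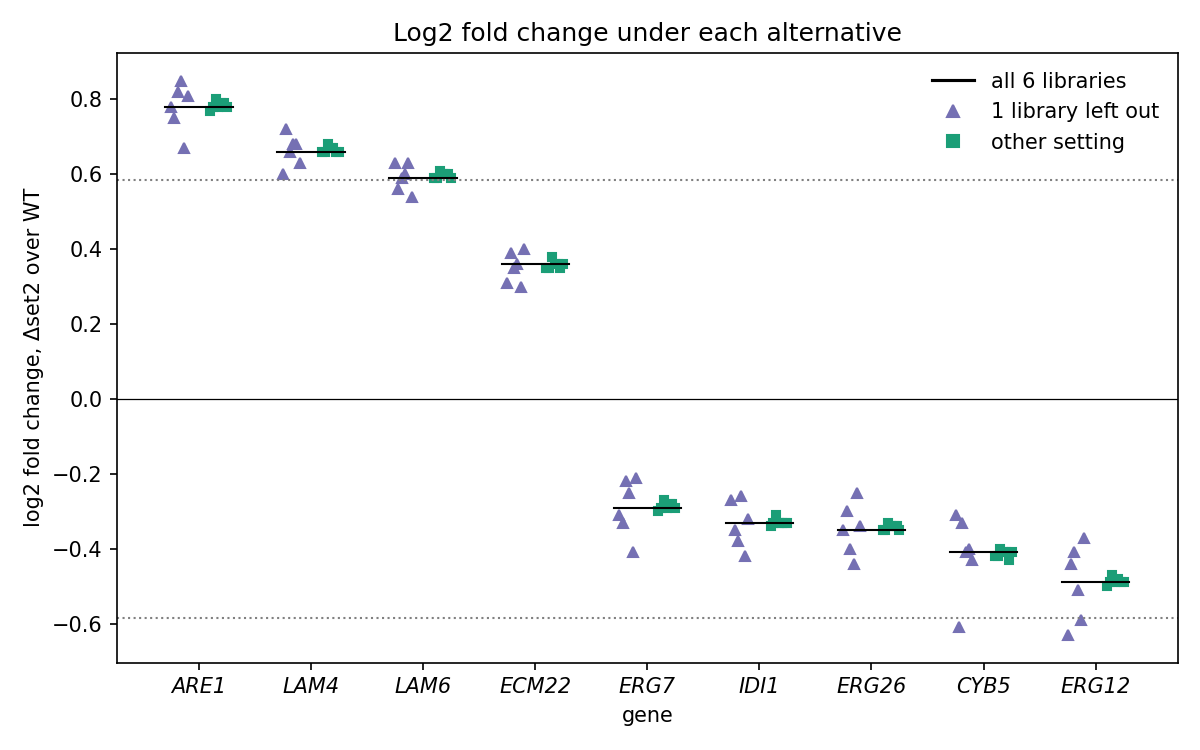
Log2 fold change in Δset2 over WT for 7 sterol genes and for LAM4 and LAM6. Black lines are estimates from all 6 libraries, triangles leave out 1 library, squares are other settings, and dotted lines mark a 1.5-fold change. ARE1 and LAM4 stay above the upper line, LAM6 lies on it, and CYB5 and ERG12 cross the lower line only when a single library is left out.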

How the data were processed

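RNA-seq was analysed for 3 Δset2 and 3 WT samples, grouped by their labels. The authors mapped reads to sacCer3 (TopHat2 2.1.0 and SAMtools 1.2 per the processing notes), kept reads with a single position and a mapping quality of at least 20, and deposited read counts per transcriptional unit, ignoring strand and reads on more than one unit. The FPKM values deposited by the authors, and their fold changes and P values from DESeq2, were not used. The 6 count columns were read.

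Differences between genotypes were tested in edgeR 4.0.16 (R 4.3.3) on the counts, with filterByExpr, TMM, glmQLFit, and glmQLFTest without a block. P values were adjusted by Benjamini-Hochberg over the 5317 units left. The SE was derived from each estimate and its F statistic, and 95% intervals used the t distribution of that fit. DESeq2 1.42.0 was an alternative, beside 2 normalizations, 2 filters, robust dispersion, a replicate block, and each library left out. Fits were tested on simulated data. Python 3.11.15 and scipy 1.17.1 were used for summaries.

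The members and lists were chosen with earlier results of these data known. Members given with a value per library were those with an adjusted P value below 0.05, the 12 with the smallest P values, and the 3 paralog pairs. Of the related genes, ERG20 was chosen by name, and LAM4 and LAM6 by an adjusted P value below 0.05. SET2 was given as a check of the labels. ERG11, HES1, LAM1, LAM5, SIP3, YSP2, and the neighbours of ARE1 were described after their values were seen.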

Additional observations from a re-analysis of the deposited data

How the results depend on the processing

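The number of sterol genes past both thresholds was 1 in 11 of the 13 alternatives and ranged from 1 to 2 with single libraries left out (2 without Δset2 replicate 2, adding CYB5, and 2 without WT replicate 2, adding ERG12). At an adjusted P value below 0.05 it was 2 with DESeq2, adding ERG12, and ranged from 1 to 4 with single libraries left out, the highest without WT replicate 2, where ERG7 (adjusted P = 0.025, edgeR), ERG12, and IDI1 (adjusted P = 0.024, edgeR) joined ARE1. All units past the thresholds ranged from 80 to 373 with single libraries left out, compared with 190 in the main fit. The 373 came from the fit without WT replicate 2, so calls rose there over all units as well. Without Δset2 replicate 2 there were 219. The related genes past the thresholds ranged from 1 to 2. SET2 stayed between -4.43 and -4.03.

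In the replicate block fit, 75 of all units and 0 related genes passed. LAM4 then had an adjusted P value of 0.051 and LAM6 one of 0.11, while ARE1 still passed (adjusted P = 0.048, edgeR). Deviations of same-numbered libraries correlated at -0.32, -0.37, and -0.13 across units, and 0 of 6 libraries varied most like the library with its own number, so the numbers were not taken as pairs.

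With single libraries left out, ARE2 ranged from -0.09 to 0.08 (above 0 without Δset2 replicate 3, and 0.0026 without WT replicate 2), HMG1 from -0.0047 (without Δset2 replicate 2) to 0.12, and UPC2 from -0.03 (without Δset2 replicate 3) to 0.04 on the log2 scale. The cause was not tested. Depth limits HES1 most, with at most 34 reads in a library.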
